A study of Mus musculus with 6 samples.

Results

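The Myc locus, a stretch of mouse chromosome 15 from position 61000000 to 64000000 (GRCm38), was examined for open chromatin in thymus. It holds Myc (61985341 to 61990361), the long non-coding RNA gene Pvt1 (62037986 to 62260215), the gene desert beyond Pvt1, the gasdermin C genes Gsdmc, Gsdmc2, Gsdmc3 and Gsdmc4, and part of Cyrib. Its members were all ATAC-seq summits deposited for this stretch; an ATAC-seq summit is the point of strongest signal in a peak of transposase-accessible DNA. Summits were widened by 250 bp per side, and those that then overlapped, from whichever library, were joined, which gave 121 regions of 73702 over chromosomes 1 to 19 and X, from 539 of 327067 summits. The series holds 3 thymus libraries labelled p53 AD/- and 3 labelled p53 -/- (null), all from mice 4 weeks old of mixed BALB/C and C57BL6 background with germline p53 alterations. AD is the allele that the series calls dimeric, so neither genotype as labelled carries a wild-type p53 allele, and no wild-type group was used here. The labels give no further detail of the AD allele and do not state that libraries came from different mice, so p-values measure the spread between libraries.

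Myc is a transcription factor that pairs with Max, binds E-box sequences and drives growth and division. In the thymus it is switched on by Notch1 and pre-T cell receptor signals as immature thymocytes expand, and it is a main target of Notch in T cell leukaemia. Enhancers far downstream of the gene serve different blood cells. One that depends on Notch acts in immature T cells, and a cluster of enhancers farther away acts in blood stem and progenitor cells. In the mouse these were described within 1.2 to 1.4 Mb and within 1.6 to 1.8 Mb downstream of Myc, and these 2 stretches are called the Notch enhancer interval and the blood enhancer interval below. Summits show where DNA was accessible, not which factor was bound or which gene was served.

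The libraries differed in length more than the genotypes did. AD/- libraries 1, 2 and 3 held 94, 103 and 70 summits in the locus, and null libraries 1, 2 and 3 held 82, 96 and 94. AD/- library 3 had the fewest here and in the whole series, with 44492 of 54615 to 60157 in the other AD/- libraries and 54139 to 58017 in null. Each summit carries the authors' score, read as the −log10 of a q-value, which rises with depth. A score percentile below is the place of that score in the ranking of the same library, on a scale that ends at 100 for the highest score. Read depth is unknown, because the lists hold no read counts, and ranks from lists of different length are given as a description. As a check of the tissue, all 13 thymocyte markers listed, among them Cd3e, Rag1, Ptcra and Bcl11b, had a summit within 1 kb of an annotated gene end in every library. Over all 21631 protein-coding genes 52.6% did. Of 5 B cell markers 1 did (Ebf1), of 4 myeloid markers 0, of 4 thymic epithelial markers 0 and of 3 endothelial markers 1 (Kdr). Some markers of other cells were found in part of the libraries, Itgam and Cd14 in the 5 other than AD/- library 3, the epithelial regulator Foxn1 in the 5 other than AD/- library 1, and Psmb11 in null libraries 1 and 2. The B cell count depended on the distance. With gene ends taken to 2 kb, 3 of the 5 B cell markers had a summit in every library, and the other counts given here did not change. At 2 kb each of the 3 endothelial markers had a summit in at least 1 library.

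A pair of promoters from the locus is given as an example. Of the 12 windows available in the locus, the pair holds the 1 with a summit and 1 of the 11 without. Their contrast was thus fixed by the choice. The windows run from 250 bases before to 50 bases after the annotated start (RefSeq, GRCm38.p6, minus strand). Gm20740, a long non-coding RNA gene beyond the Notch enhancer interval, had a summit in this window in every library. D030024E09Rik, upstream of Myc, had none in any. Capitals mark matches to the motifs searched.
Gm20740 (63479559 to 63479858): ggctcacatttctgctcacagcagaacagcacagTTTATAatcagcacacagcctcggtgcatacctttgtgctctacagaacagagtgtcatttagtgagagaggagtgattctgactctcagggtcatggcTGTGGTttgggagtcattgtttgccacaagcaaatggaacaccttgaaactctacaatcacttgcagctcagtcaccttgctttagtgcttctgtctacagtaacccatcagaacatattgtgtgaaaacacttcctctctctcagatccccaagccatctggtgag
D030024E09Rik (61774402 to 61774701): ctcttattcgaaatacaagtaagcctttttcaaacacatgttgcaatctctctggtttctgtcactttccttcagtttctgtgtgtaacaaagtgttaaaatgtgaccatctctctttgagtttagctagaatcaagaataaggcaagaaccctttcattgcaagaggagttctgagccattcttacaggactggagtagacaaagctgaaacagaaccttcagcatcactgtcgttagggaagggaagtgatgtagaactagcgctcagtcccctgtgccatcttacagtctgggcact

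Counted from 1 at the 5′ end of the Gm20740 window, the summit was at base 228, 214 and 183 in AD/- libraries 1, 2 and 3 and at base 210, 230 and 201 in null libraries 1, 2 and 3. The genotypes overlapped in position. Its score percentiles were 50.5, 64.3 and 36.6 in AD/- and 47.5, 49.6 and 58.6 in null, and these also overlapped. The motifs searched on both strands were the TATA box TATAAA, the E-box CACGTG, the E2F motif GCGGGAA, the RBPJ core TGGGAA, the SP/KLF motif GGGCGG, the ETS core CCGGAA and the RUNX core TGTGGT. The Gm20740 window held 1 TATAAA on the opposite strand (bases 35 to 40) and 1 TGTGGT (bases 134 to 139), letters that 13.6% and 16.8% of all 32851 promoter windows hold. The D030024E09Rik window held 0 of the 7 motifs. GC content was 46.3% in Gm20740 and 42.3% in D030024E09Rik, compared with a median of 52.7% over all windows. Of the 12 promoter windows available in the locus, Gm20740's was the one with a summit in all 6 libraries, and the other 11 had none. No window was available for Myc, Pvt1 or Cyrib. The motif search planned for the Myc promoter was therefore made in the Gm20740 and D030024E09Rik windows. Myc and Pvt1 each had a summit within 1 kb of an annotated end in all 6 libraries, as given below.

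The locus was rich in summits for a place with so few genes. It held 121 regions, although only 6 protein-coding genes have the lower of their coordinates in it. Among 768 tiles of 3 Mb over the autosomes the median was 81 regions, and among the 111 tiles with no more protein-coding genes than the locus it was 10, with 2 of those tiles above 121. Of the 121 regions, 60 (49.6%) had a summit in all 6 libraries, compared with 52.1% over all regions of the series, and 22 (18.2%) in 1 library, compared with 16.4%. The regions lay far from coding genes, at a median of 340 kb from the nearest annotated end of one, compared with 12.4 kb over all regions. Outside any annotated gene lay 79 regions, 28 were in long non-coding RNA genes alone and 10 were in protein-coding genes. Within 1 kb of an end of a protein-coding gene lay 2 regions (1.65%, compared with 18.3% over all regions), both at Myc.

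**Figure D1:**
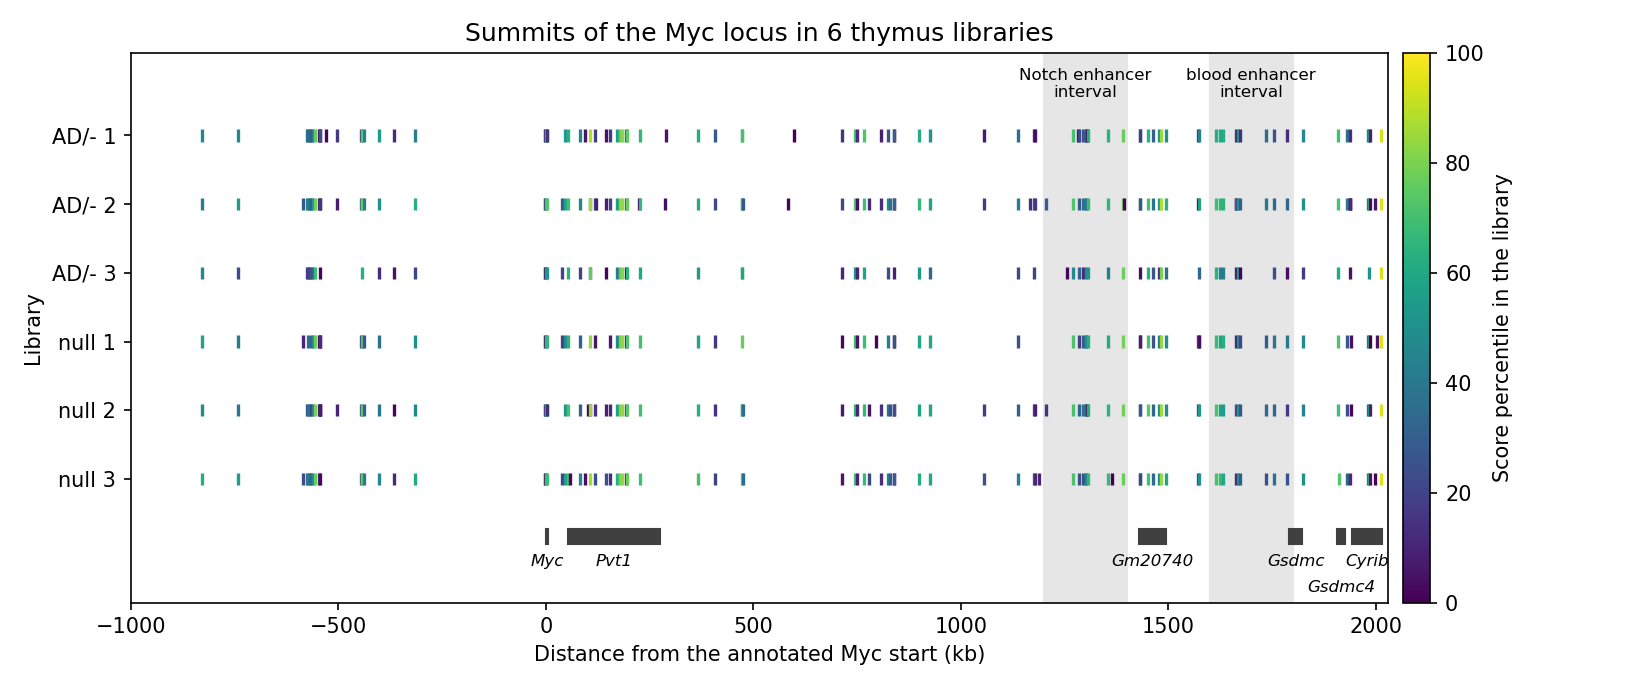
Each tick is a summit of 1 library (rows), placed by its distance from the annotated Myc start in kb and coloured by its score percentile within the library, with gene bodies as dark bars and the enhancer intervals shaded. Columns of ticks recur in all 6 rows for 60 of the 121 regions. A gap of 313 kb lies before Myc, and the fewest ticks are in AD/- library 3 (70).

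At Myc itself, 4 regions were found in all 6 libraries and 1 in 2 of them. The region at the annotated start, 93 bp upstream (median position 61985248), had percentiles of 66.7, 70.5 and 54.6 in AD/- libraries 1, 2 and 3 and of 66.3, 64.4 and 67.4 in null. AD/- library 3 was lowest, and the other 5 libraries overlapped between genotypes. Its summit lay at 61985235 in AD/- library 3 and null libraries 2 and 3, at 61985261 and 61985268 in AD/- libraries 1 and 2, and at 61985437, inside the gene, in null library 1. The library that differed in position was thus not the one that differed in rank.

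The other regions at Myc flanked this one. One 1858 bp upstream (61983483) had percentiles of 68.6, 67.8 and 63.9 in AD/- and 71.1, 69.9 and 66.0 in null. Between it and the start, a weak region 898 bp upstream (61984443) had 11, 16.8 and 6.49 in AD/- and 9.54, 15.2 and 8.24 in null. Its summits spanned 18 bp over the 6 libraries, but with all lists shortened to the length of the shortest, it was left in 1 library, AD/- library 3. That list is the shortest, so it loses no summit by this step. Inside the gene, 1728 bp after the start (61987069), the percentiles were 66.1, 73.4 and 52.6 in AD/- and 66.5, 62.3 and 68.7 in null. A further region 2705 bp into the gene (61988046) was found in AD/- library 1 and null library 2 alone, at 15.2 and 12.4. In none of the 4 shared regions were the genotypes apart. Before Myc, no library had a summit between the regions at 61670835 and 61983483, a gap of 313 kb that holds D030024E09Rik. Of 73682 gaps between neighbouring regions in the series, 1.58% were longer.

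Pvt1, the neighbouring non-coding gene whose promoter is known to compete with Myc's for enhancers in human cells, held 5 of the 12 shared regions with the highest percentile in their lowest library, its own start included. Ordered by the median over libraries, an order added after seeing the data, 4 of the top 12 lay in Pvt1, and its start was not among them. That start, 53 kb beyond Myc's (62037960), had percentiles of 63.4, 70.0 and 64.2 in AD/- and 64.6, 71.0 and 70.7 in null. The most even region of these, 184 kb from the Myc start (62169780), had 82.9, 84.5 and 81.9 in AD/- and 83.3, 84.5 and 83.3 in null, so that all 6 libraries lay within 3 percentile points. The region at 108 kb (62092879) had the highest median of the gene, 85.4, from 88.2, 86.6 and 76.3 in AD/- and 84.0, 84.8 and 85.9 in null, with AD/- library 3 lowest. Those at 180 kb (62164992) and 196 kb (62181693) had medians over libraries of 80.6 and 74.9. From 1 kb before its start to its end, Pvt1 held 19 regions in 223 kb, 9 of them in all 6 libraries. Summits numbered 13, 15 and 11 in AD/- and 11, 14 and 14 in null, a mean of 13 ± 2 and 13 ± 1.73 (SD, n = 3 each).

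In the upstream desert, from the lower edge of the locus to 10 kb before Myc, 20 regions were found over 975 kb, 10 of them in all 6 libraries. The highest-ranking lay 556 kb upstream of Myc (61429003), at 76.3, 78.3 and 68.7 in AD/- and 77.5, 79.2 and 77.1 in null. In the downstream desert between Pvt1 and the Notch enhancer interval, 11 of 28 regions were in all 6 libraries and 7 in 1 alone. Its libraries held 20, 24 and 13 summits in AD/- and 14, 21 and 21 in null. Its highest-ranking region, 472 kb downstream (62457287), stood at 73.9, 74.2 and 74.4 in AD/- and 76.6, 78.0 and 75.2 in null. Its summit was at 62457287 itself in 5 libraries and at 62457333 in AD/- library 2.

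**Figure D2:**
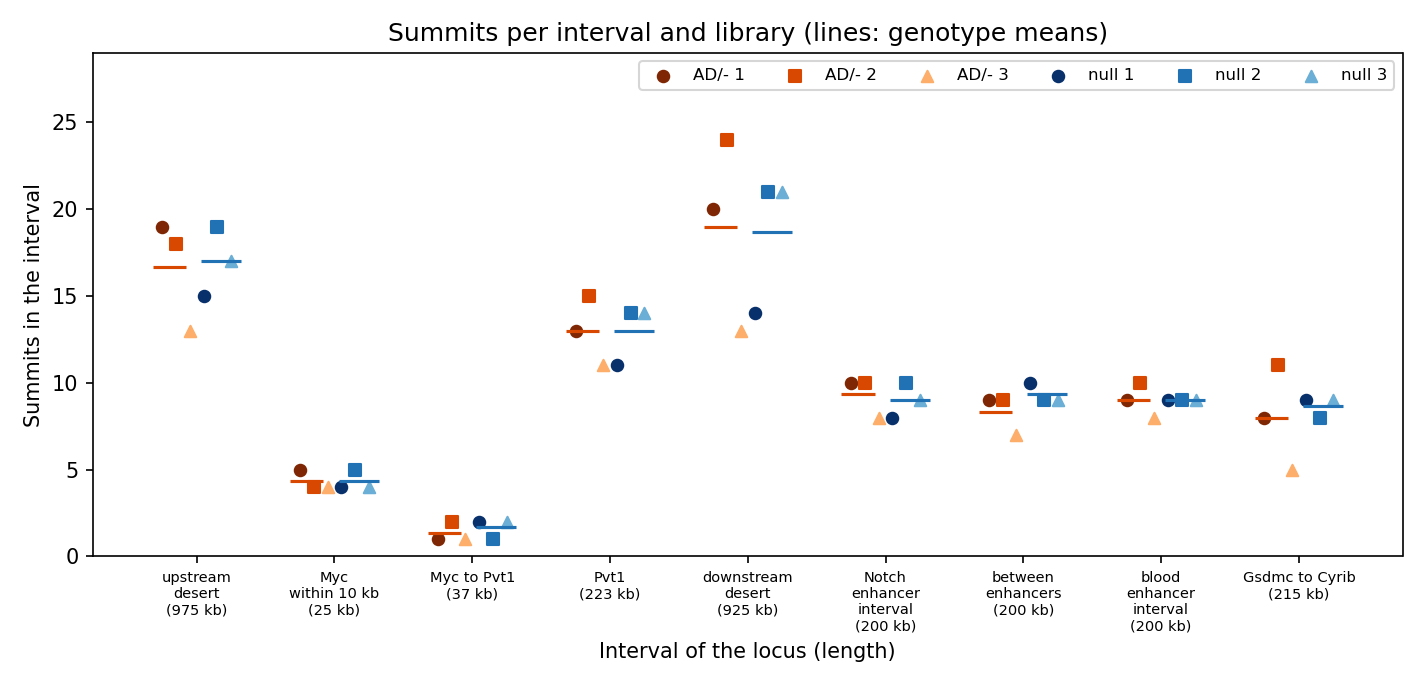
Points give the number of summits of each library in 9 consecutive intervals of the locus, whose lengths in kb stand below them, and lines give the genotype means (n = 3 each). The genotypes overlap in every interval, and AD/- library 3 is lowest or tied for lowest in each.

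The Notch enhancer interval held 15 regions in 200 kb, of which 6 were in all 6 libraries. The region 1271 kb downstream of the Myc start (63255918) stood at percentiles of 70.5 and 72.3 in AD/- libraries 1 and 2, 47.8 in AD/- library 3, and 71.5, 71.2 and 71.7 in null. Apart from AD/- library 3, the libraries lay within 2 percentile points of each other. The summit was at 63255918 in all of them and at 63255923 in AD/- library 3. No protein-coding gene end was nearer than 520053 bp. At 1392 kb (63377420), the highest-ranking region of the interval stood at 76.7, 79.4 and 77.4 in AD/- and 79.3, 78.9 and 77.1 in null, with summits at 63377420 or 63377421 in every library. Here AD/- library 3 was level with the rest.

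The other 4 shared regions of this interval also overlapped between genotypes. They lay 1295, 1302, 1307 and 1355 kb downstream, with median percentiles of 28.9, 41.6, 62.8 and 64.2. In the one at 1302 kb (63287402) AD/- library 3 was the highest, at 48.8 compared with 32.4 to 47.7 in the others, and in the one at 1355 kb (63340578) it was the lowest, at 42.8 compared with 61.2 to 66.9. Summits were 10, 10 and 8 in AD/- and 8, 10 and 9 in null. Per 1000 summits of the library the mean was 0.176 ± 0.00894 for the AD/- libraries and 0.161 ± 0.0167 for null (SD, n = 3 per genotype). The difference did not pass the exact two-sided permutation test (p = 0.2, adjusted over 3 tests p = 0.45, smallest possible p = 0.1).

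The blood enhancer interval held 9 regions in 200 kb, 8 of them in all 6 libraries. With lists of equal length 5 of these 8 were in all 6, without those at 1663, 1673 and 1786 kb, while all 6 shared regions of the Notch enhancer interval were. The highest-ranking lay 1616 kb downstream (63601720), and all 6 libraries put its summit on that same base. Its percentiles were 62.4, 69.4 and 63.8 in AD/- and 67.8, 71.2 and 70.9 in null. Next to it, regions at 1626 kb (63611374) and 1632 kb (63617067) had medians of 59.7 and 60.9, with AD/- library 3 lowest in both, at 41.3 and 42.6. The region at 1667 kb (63652700) was the most even, at 54.1, 52.5 and 55.7 in AD/- and 51.7, 52.7 and 52.1 in null. The other 4 shared regions, at 1663, 1673, 1755 and 1786 kb, were weaker, with medians of 11.9, 22.8, 32.7 and 20.9. Summits numbered 9, 10 and 8 in AD/- and 9 in each null library. Per 1000 summits this was 0.170 ± 0.00829 and 0.161 ± 0.00559 (SD, n = 3 each; exact permutation p = 0.3, adjusted p = 0.45).

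Between the enhancer intervals, Gm20740 held a strong region inside its body, 1482 kb from Myc (63467097), at 85.3, 88.1 and 80.1 in AD/- and 83.7, 86.6 and 84.1 in null. A region at 1451 kb (63436374), also within the gene, had a median of 70.2. At the far edge, Cyrib, whose product restrains actin remodelling by Rac1, held the highest-ranking region of the locus, at 63998209. It stood at 94.1, 94.9 and 93.9 in AD/- and 94.9, 94.9 and 94.5 in null, with the summit on the same base in all 6 libraries. It lay 1791 bp inside the upper edge, and the next summit beyond the edge, at 64007865 in null library 2, had a percentile of 5.95. At the lower edge the first summit inside was at 61157730 (percentile 47.3, AD/- library 1) and the last outside at 60832757 (12.2, AD/- library 1). Of the 32 annotated genes that reach into the locus, 7 had a summit within 1 kb of an end in all 6 libraries: Gm38563, Myc, Pvt1, Gm20740, Gm41336, Gsdmcl-ps and Cyrib. For Cyrib this was the end at 64060778, beyond the upper edge, and its end inside the locus, at 63929094, had none. The region at Gm38563 (61157738) had a median percentile of 47.8, that at Gm41336 (63740750) 32.7 and that at Gsdmcl-ps (63924782) 8.17. With lists of equal length the last of these was left in 1 library, AD/- library 3, whose list was not cut. The small nucleolar RNA gene Gm22521 had one in 4 libraries, at 8.97 to 14.6. The gasdermin genes Gsdmc, Gsdmc2, Gsdmc3 and Gsdmc4, which belong to a family of pore-forming proteins, had none at an end.

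**Figure D3:**
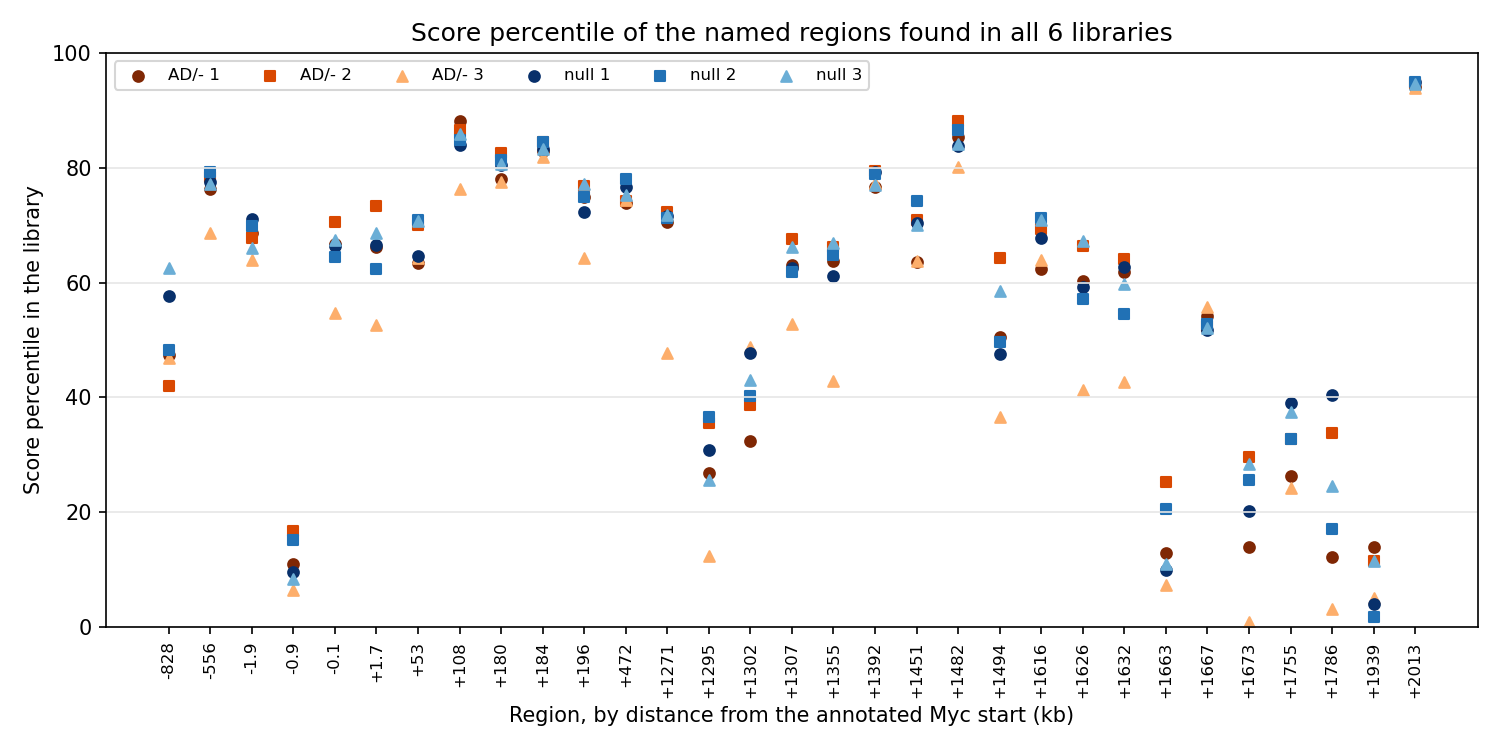
Score percentiles of the 31 named regions found in all 6 libraries, by distance from the annotated Myc start in kb, with 1 point per library (orange shades for AD/-, blue shades for null). The colours mix at most regions, AD/- library 3 (pale triangles) is often the lowest point, as at +1271 kb (47.8), and all points stand close together at +1667 and +2013 kb.

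No region of the locus met the call for presence in 1 genotype alone. The call required a summit from each of the 3 libraries of one genotype and from 0 of the 3 of the other. That held for 0 of 121 regions for AD/-, where 0.179% of all 73702 regions of the series were called, and for 0 of 121 for null, where 0.418% were. Under a looser rule, 2 or 3 libraries of one genotype and 0 of the other, the counts were 0 for AD/- (1.51% over the series) and 1 for null (2.37%). That region, at 63271110 in the Notch enhancer interval, had a summit in null libraries 1 and 2, at percentiles of 17.8 and 30.3. It lay 543 bp from a region at 63270567 with summits in all 3 AD/- libraries and null library 3, at 21.4 to 31.2. Without null library 3 these became a region of null alone and a region of AD/- alone, and without null library 2 a region at 62458209 became AD/- alone. That region, 922 bp from the one at 62457287, was present in all 3 AD/- libraries, at 70.6, 68.5 and 58.0, in null library 2 at 61.9, and in no other. With a library left out the call is easier to meet, and no share over the series is given for these calls. These 3 regions, and those named below for percentiles that did not overlap or for the widest gap, were chosen after their values were seen.

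The share of summits that fell in the locus overlapped between genotypes. The AD/- libraries 1, 2 and 3 had 1.72, 1.71 and 1.57 summits in the locus per 1000 in the library, and null libraries 1, 2 and 3 had 1.51, 1.73 and 1.62. The means were 1.67 ± 0.0829 and 1.62 ± 0.105 (SD, n = 3 each; exact two-sided permutation p = 0.7, adjusted p = 0.7). Leaving out null library 1 turned the sign of the difference, to −0.00381 per 1000.

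Score percentiles separated the genotypes at few regions. Of the 60 regions in all 6 libraries, 1 had all AD/- percentiles above all null ones, with 0.769% of 38374 such regions over the series, and 5 had all null percentiles above all AD/- ones, with 5.55% over the series. The former lay 713 kb downstream of Myc (62698613), at 15.6, 21.8 and 10.8 in AD/- and 3.10, 7.06 and 6.23 in null. With lists of equal length it was left in AD/- library 3 alone, whose list was not cut. The latter lay 828 kb upstream and 227, 472, 926 and 1755 kb downstream, and the difference of genotype means was between 2.45 and 12.3 percentile points. The group included the region at 472 kb given above and one at 227 kb inside Pvt1 (62212472), at 66.3, 67.1 and 59.5 in AD/- and 70.0, 69.9 and 69.7 in null. With all lists shortened to the 44492 best-scoring summits, 2 of 50 regions stood on each side, with 5.02% and 4.57% over the series. Without AD/- library 3 the counts were 13 of 75 with AD/- above and 7 of 75 with null above (12% and 6.26% over the series). More regions had null above AD/- with all libraries and full lists, and more had AD/- above null once AD/- library 3 was left out. With fewer libraries to compare, non-overlap is easier to meet. The share over the series with AD/- above rose as well, from 0.769% to 12%.

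AD/- library 3 ranked the locus lower than the other libraries did. Over the 60 shared regions its median percentile was 42.7, compared with 54.7 and 59.7 in AD/- libraries 1 and 2 and 56.1, 53.8 and 59.9 in null. It was the lowest of the 6 libraries in 47 of 60 regions (78.3%), compared with 71.9% of shared regions over the series. The gap to the median of the other 5 was 10.6 percentile points at the median region of the locus and 6.60 over the series. The region at 1271 kb had a gap of 23.8, which 9 of the 60 regions (15%) and 5.62% of those over the series reached. The widest gap, 37.0, was at 63463942 inside Gm20740, where AD/- library 3 stood at 13.5 and the others at 41.1 to 54.8. Of the 18 regions found in 5 libraries, 15 (83.3%) were missing from AD/- library 3, compared with 73.2% of 7628 such regions over the series, and 3 from null library 1. The part of list length in these gaps was not tested.

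Over the 58 shared regions with a single summit per library, the range of positions over the 6 libraries had a median of 57 bp, compared with 48 bp over 38015 such regions of the series. In 3 of the 58 (5.17%) the 6 summits lay within 1 bp, compared with 3.03% over the series: those at 1392, 1616 and 2013 kb. In 9 (15.5%) they ranged over 200 bp or more, compared with 7.38%. The widest range, 615 bp, was at 1673 kb (63658191), where AD/- library 3 had its summit at 63658741 and the others at 63658126 to 63658261. In the 33 regions with a median percentile of at least 50 the median range was 51 bp, and in the 25 others 67 bp.

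**Figure D4:**
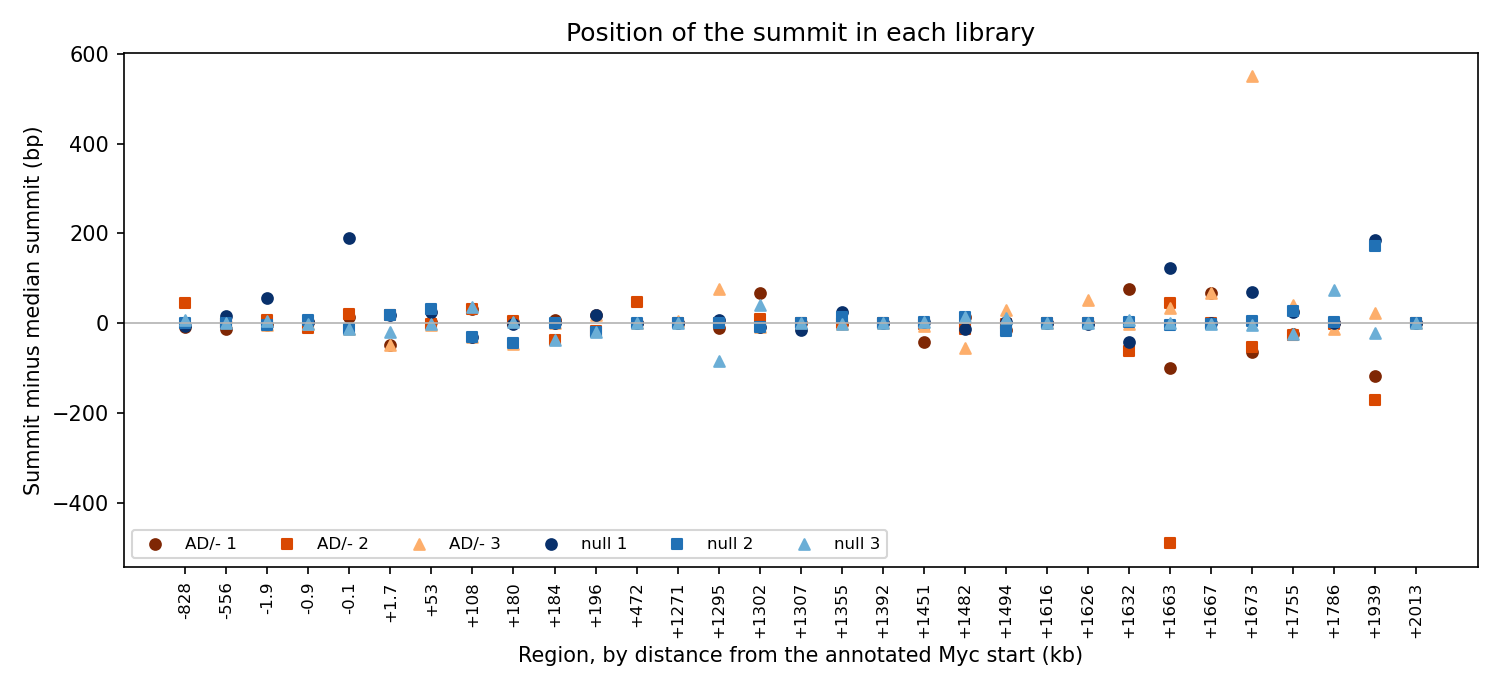
Position of each library's summit minus the median position of the region, in bp, for the 31 named regions found in all 6 libraries, by distance from the annotated Myc start in kb. Points fall on 0 at +1616 and +2013 kb, null library 1 stands apart at the Myc start, and the farthest points are AD/- library 3 at +1673 kb and an additional summit of AD/- library 2 at +1663 kb.

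The genes that encode Myc's partners and regulators were nearly all open at a gene end. Of 25 genes in a list of the MYC network and the Notch cofactors, 23 (92%) had a summit within 1 kb of an annotated end in all 6 libraries, compared with 52.6% of 21631 protein-coding genes. Mlxipl, the glucose-responsive ChREBP gene, had none. Rbpj, which encodes the DNA-binding partner of Notch, had one in null library 3 alone, at a percentile of 3.50. A gene end without a summit does not show a closed promoter, since annotated ends can differ from the start in use. The highest-ranking were the Myc antagonists Mxd1 and Mxd4, with medians over libraries of 99.8 each, and Fbxw7 (99.3), which encodes a ubiquitin ligase component that marks Myc and Notch1 for destruction. Max, the obligate partner, had a median of 98.4 and a range of 98.1 to 98.5. Notch1 had 89.7 and its coactivator gene Maml1 93.7.

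Myc stood near the foot of this list. Its median of 66.5 was above that of 2 of the 23 genes, Mxi1 (56.1), a further antagonist, and Sin3a (27.0), a corepressor gene, and the paralogues Mycn and Mycl had 73.9 and 78.0. With gene ends taken to 2 kb, the median of Sin3a was 87.0 and that of Myc 69.3, and Myc stood above 1 gene, Mxi1. Among the 11385 protein-coding genes with a summit at an end in all 6 libraries, 14% had a lower median than Myc, and the median gene stood at 89.3. The shared regions of the locus as a whole also ranked low, with a lowest percentile above 75 in 6 of 60 (10%) compared with 28.5% over the series. The series holds a larger share of regions at protein-coding gene ends, as given above. Regions equally far from genes were not compared. Of the 75 regions of the locus more than 200 kb from any protein-coding gene end, 35 were found in all 6 libraries. For Mycn, a gene of embryonic and neural tissue, the percentiles were 72.5, 75.3 and 65.6 in AD/- and 76.0, 76.8 and 68.9 in null, and the genotypes overlapped. For Mycl they were 78.1, 79.3 and 69.9 in AD/- and 75.4, 77.8 and 80.2 in null, which also overlapped.

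**Figure D5:**
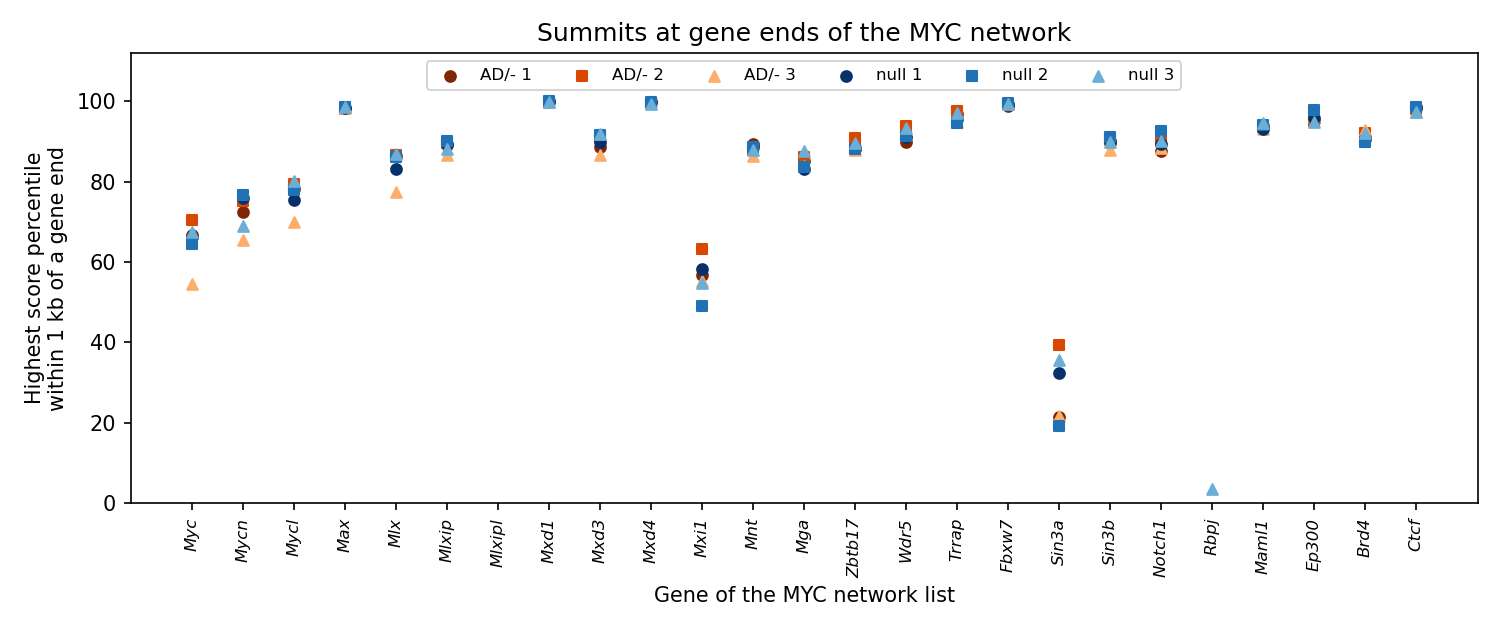
Highest score percentile at the ends of each of 25 genes (either annotated end, 1 kb to each side), with 1 point per library (orange shades for AD/-, blue shades for null) and no point where a library had no summit. Mxd1, Mxd4, Fbxw7 and Max stand above 98 in every library, Myc between 54.6 and 70.5, Rbpj has a point in null library 3 alone and Mlxipl has none.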

How the data were processed

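The authors deposited a list of ATAC-seq summits for each of 6 libraries, with scores taken here to be −log10 q-values, as MACS2 writes them, since they begin near the 1.3 that a q-value of 0.05 gives. Per the submitters' processing notes, which give no roles, the tools included MACS2 2.1.2, Picard 2.9.0, Bowtie2 2.3.4.2 and Trim Galore 0.4.5, on GRCm38. Duplicate removal, read shifting and masking are not given in the sources used here. Replicates were numbered in deposition order. Summits were merged with pandas 2.3.3 in Python 3.11.15 and tested with SciPy 1.17.1. Gene ends came from RefSeq on GRCm38.p6, which gives no strand for genes. The merging and calling were tested on simulated data. Named regions were those within 10 kb of Myc, the 12 shared ones with the highest percentile in their lowest library, shared ones of the enhancer intervals, those of 1 genotype, those at gene ends and the edges. All 25 listed network genes matched. The members and lists were chosen with earlier results of these data known. The settings varied were the extension (100 or 500 bp), a minimum score of 5, equal list lengths, summits closer than 501 bp counted once, autosomes alone, a looser call, gene ends within 2 kb and each library left out. 1 further marker list is not reported here.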

Additional observations from a re-analysis of the deposited data

How the results depend on the processing

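No paired analysis was possible because the labels give no replicate numbers. The difference in the locus share (AD/- minus null, summits per 1000) reversed to −0.0166 with scores of at least 5, and ranged from −0.00381 (without null library 1) to 0.101 when 1 library was left out. That of the blood enhancer interval reversed to −0.0154 with scores of at least 5 and to −0.0150 with equal list lengths, and ranged from 0.00448 to 0.0120 with 1 library left out. That of the Notch enhancer interval kept its sign under every alternative run, at 0.00152 with scores of at least 5 and 0.00896 to 0.0249 with 1 library left out. None of these passed the exact permutation test, which with 3 libraries per genotype cannot go below p = 0.1. Regions of 1 genotype alone numbered 0 to 1 for each genotype with 1 library left out, and 1 for null under the looser call. Both settings make the call easier to meet. Regions in all libraries numbered 59 to 75 with 1 library left out. Regions whose percentiles did not overlap numbered 1 (AD/- above) and 5 (null above) of 60, with 0.769% and 5.55% over the series. With equal list lengths they numbered 2 and 2 of 50, with 5.02% and 4.57% over the series. Without AD/- library 3, which makes non-overlap easier to meet, they numbered 13 and 7 of 75, with 12% and 6.26%. Both alternatives were chosen after seeing the data. Of the 31 named shared regions, all kept their percentile to within 1 SD over libraries when ranked among autosomal summits; within lists of equal length 4 did, 22 moved and 5 were no longer in all 6 libraries. The causes were not tested.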
